A study of Mus musculus with 6 samples.

Results

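Sox2 and its closest relatives, the SoxB genes, were followed through 6 RNA libraries of activated mouse B cells. The genes were taken by symbol from the table of raw counts: Sox2, Sox1 and Sox3 (subgroup SoxB1), Sox14 and Sox21 (SoxB2), and Sox2ot, the non-coding transcript that overlaps Sox2. Of these 6 symbols, 5 matched 1 row each of the table's 37620 genes. Sox1 is not analysed here. All libraries came from splenic B cells of C57Bl/6 mice aged 4 months, cultured with anti-CD40 (1 µg/ml) and IL-4 (12.5 µg/ml). The cells were infected at 24 and 48 h with a retrovirus and sorted at 96 h for mCherry. The control group carried the vector pMIR (3 libraries), and the other group carried pMIR-Sox2 (3 libraries). The labels do not name the species or form of the introduced Sox2, the promoter that drives it, or whether the replicates came from separate mice, so the spread behind each p-value is that between these libraries and may be technical.

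Sox proteins bind DNA through a shared HMG box, which binds in the minor groove at short AT-rich sites and bends the DNA. The SoxB1 proteins act mainly as activators that keep stem and neural progenitor cells undifferentiated, whereas the SoxB2 proteins, with nearly the same HMG box, act mainly as repressors. They usually work with a partner such as a POU factor. Sox2ot runs through the Sox2 locus on the same strand and is often found in cells that transcribe Sox2.

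The coding stretch that SoxB genes share most closely is shown first, because the counts can only separate the genes where their sequences differ. In the GENCODE M21 transcripts (GRCm38) the 237-base stretch of Sox2 that best matched the 4 other coding SoxB genes without gaps lay at chr3:34650536-34650772, on the plus strand of the single Sox2 exon, and it covers most or all of the HMG box. The matching stretches were chrX:60892771-60893007 in Sox3, chr14:118235384-118235620 in Sox21 and chr9:99875433-99875669 in Sox14, all 3 on the minus strand and in coding exons. The Sox3 and Sox21 stretches each had the Sox2 base at 208 of 237 positions (87.8%), and the Sox14 stretch at 204 (86.1%). Sequences run 5′ to 3′ on the coding strand, and capitals mark the bases that differ from Sox2.
Sox2: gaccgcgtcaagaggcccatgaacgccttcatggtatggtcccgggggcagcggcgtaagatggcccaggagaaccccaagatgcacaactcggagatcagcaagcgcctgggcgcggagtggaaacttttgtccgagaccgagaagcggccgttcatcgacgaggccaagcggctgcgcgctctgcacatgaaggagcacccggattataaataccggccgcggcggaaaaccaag
Sox3: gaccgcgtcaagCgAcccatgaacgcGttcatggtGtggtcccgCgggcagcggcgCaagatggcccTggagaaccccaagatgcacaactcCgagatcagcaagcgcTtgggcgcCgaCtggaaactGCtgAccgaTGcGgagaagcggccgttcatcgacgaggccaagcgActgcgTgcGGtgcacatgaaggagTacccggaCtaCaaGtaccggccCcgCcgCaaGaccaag
Sox21: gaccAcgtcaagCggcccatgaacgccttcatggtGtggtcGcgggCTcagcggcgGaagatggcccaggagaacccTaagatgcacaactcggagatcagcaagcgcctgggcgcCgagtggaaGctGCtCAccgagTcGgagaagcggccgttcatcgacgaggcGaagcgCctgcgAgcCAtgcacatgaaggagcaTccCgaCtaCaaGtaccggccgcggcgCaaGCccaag
Sox14: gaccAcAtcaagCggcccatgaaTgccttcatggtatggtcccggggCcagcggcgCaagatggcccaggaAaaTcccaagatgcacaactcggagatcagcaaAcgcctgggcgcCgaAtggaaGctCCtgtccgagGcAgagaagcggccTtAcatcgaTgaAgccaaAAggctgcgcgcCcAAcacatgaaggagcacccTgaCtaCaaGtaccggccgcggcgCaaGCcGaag
The longest run without a mismatch to the Sox2 coding sequence was 38 bases in Sox21, 32 in Sox3 and 29 in Sox14. Among the 15 Sox genes outside SoxB it was longest in Sox10 (30 bases), which had 0 counts in both groups. The read length is not given in the sources used here. Whether reads of the introduced Sox2 were assigned to a relative was not tested.

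Libraries held 17153805 to 27692437 gene counts, and every value below rests on that depth. CPM are a gene's counts scaled to one fixed library size, after a filter on low counts and with TMM scaling factors. They are relative, and in bulk RNA more expressing cells and more RNA per cell cannot be told apart. B cell markers were abundant in both groups, with 6 genes summing to 3549 to 4567 CPM in pMIR and 2267 to 2859 CPM in pMIR-Sox2. Of these 6 genes, 4 fell and 1 rose. The 4 plasma cell markers summed to 436 to 605 and 337 to 450 CPM in pMIR and pMIR-Sox2. Of these, 2 were lower in pMIR-Sox2 (Igj at 24.5 and 1.19 CPM among them) and 1 was higher (Prdm1 at 9.69 and 22.1 CPM). Markers of T cells (5 genes), NK cells (3), erythroid cells (4) and pluripotent cells (5) summed to at most 0.869 CPM in any library, with Ncr1, Hba-a1, Hbb-b1 and all 5 pluripotency markers at 0. The 5 myeloid markers, mostly Emr1, summed to 18.3 to 21.7 CPM in pMIR and 29.6 to 36.4 CPM in pMIR-Sox2. Of the 4 tested, 3 rose and 0 fell. Emr1 stood at 18.6 and 27.4 CPM, Itgam at 0.558 and 3.79, and Csf1r, lower with Sox2, at 0.645 and 0.427. Lyz2 was near the floor, at 0.0283 and 0.653 CPM (2 and 38 counts). The 5 neural markers, mostly Tubb3, summed to 1.76 to 2.10 and 2.62 to 3.62 CPM, and the 1 tested rose. The part of any of these lists in the SoxB values was not tested.

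Sox2 (ENSMUSG00000074637), the introduced gene, checks the labels. The 3 pMIR libraries read it at 0.738, 0.334 and 1.78 CPM (20, 7 and 37 counts), in the order of replicates 1 to 3. The 3 pMIR-Sox2 libraries read it at 989, 786 and 624 CPM (21528, 14536 and 10763 counts). Every pMIR-Sox2 library thus lay far above every pMIR library, as the labels say. The log2 fold change was 9.73 ± 0.42 (SE), with adjusted p = 4.74e-06 by edgeR's quasi-likelihood test, and it was 10.47 without pMIR replicate 3. A two-sided exact permutation test gave p = 0.1 for Sox2 and for each of the other 4 genes, the smallest that 3 unpaired libraries against 3 allow. It shuffled all 6 libraries without regard to replicate number. The counts do not separate the introduced coding sequence from the endogenous gene.

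**Figure D1:**
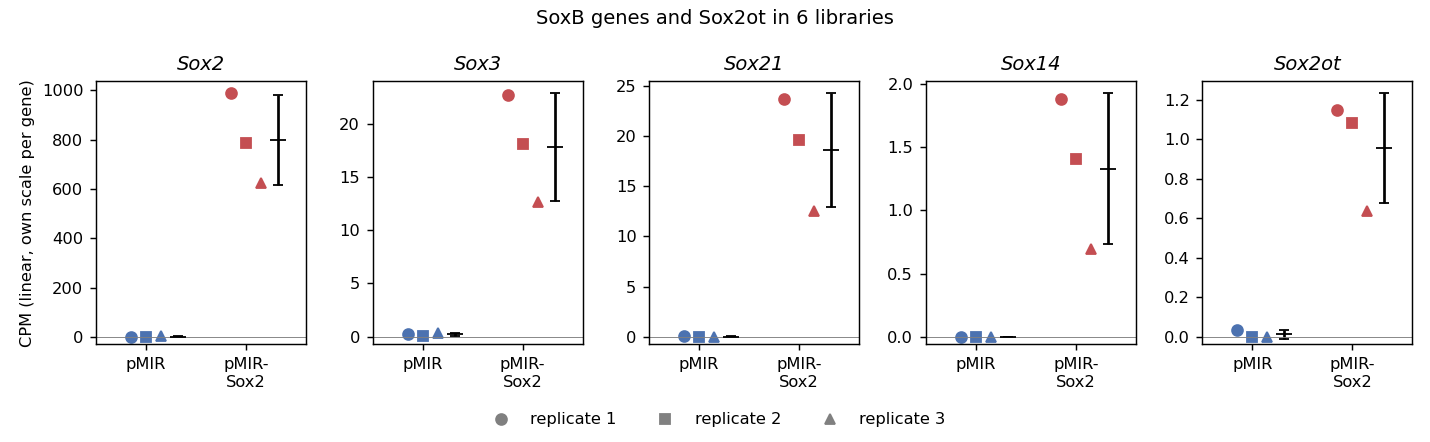
CPM of Sox2, Sox3, Sox21, Sox14 and Sox2ot in the 3 pMIR (blue) and 3 pMIR-Sox2 (red) libraries, on a linear axis of its own for each gene. Symbols are libraries by replicate number, and the black mark is the group mean with its SD (n = 3). In all 5 genes each pMIR-Sox2 library lies above each pMIR library, and replicate 1 is highest and replicate 3 lowest within pMIR-Sox2.

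Among the relatives, Sox3, the other SoxB1 activator measured, rose from a trace. Sox3 (ENSMUSG00000045179) stood at 0.258, 0.0953 and 0.384 CPM in pMIR (7, 2 and 8 counts). In pMIR-Sox2 it stood at 22.7, 18.1 and 12.6 CPM (494, 335 and 218 counts). The groups did not overlap. On the log2 scale the fitted change was 6.14 ± 0.37 (SE), with adjusted p = 1.27e-05 by edgeR. Summed over libraries, Sox3 was 73.8 times as high as in pMIR (exact 95% interval 45.9 to 127, counting error only). Of the 12898 genes tested other than Sox2, 23.2% rose. On the fitted log2 scale 58 genes (0.450%), with Sox3, Sox14 and Sox21 among them, rose by at least as much as Sox3. Sox3 passed the filter on low counts only through the pMIR-Sox2 libraries. The share of 0.450% therefore does not measure how unusual its rise was.

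Both SoxB2 repressor genes rose from at most 2 pMIR counts. Sox21 (ENSMUSG00000061517), which in neural progenitors counteracts SoxB1 proteins, had 2, 0 and 0 counts in pMIR (0.0738, 0 and 0 CPM). It reached 23.7, 19.6 and 12.5 CPM (515, 363 and 216 counts) in pMIR-Sox2. The ratio of summed counts was 656 (interval 181 to 5420, adjusted p = 9.35e-06, edgeR). Both pMIR counts came from replicate 1, and without that library Sox21 was at least 265-fold higher, set against a limit of 3 counts over the pMIR group. Sox14 (ENSMUSG00000053747), known from interneurons of the midbrain and spinal cord, had 0 counts in all 3 pMIR libraries. It reached 1.88, 1.41 and 0.696 CPM (41, 26 and 12 counts) in pMIR-Sox2, at least 31.6-fold higher against the same limit (adjusted p = 0.000738, edgeR). That bound was 19.1 without pMIR replicate 1, since fewer libraries raise the limit. Sox14 was thus called at a level where 1 library held only 12 counts.

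Sox2ot, the one non-coding member, rose to a low level. The table's Sox2ot row (ENSMUSG00000090828) had 1, 0 and 0 counts in pMIR. It had 25, 20 and 11 counts in pMIR-Sox2 (1.15, 1.08 and 0.638 CPM). The ratio of summed counts was 67.1 (interval 11.6 to 2698, adjusted p = 0.000305, edgeR), and the single pMIR count came from replicate 1. Without that library Sox2ot was at least 13.6-fold higher than the limit of 3 counts. In GENCODE M21, which files Sox2ot under another identifier, the gene spans chr3:34104270-34682619 and Sox2 (chr3:34650405-34652461) lies within it on the same strand. How the counting treated reads where the gene models overlap is not given in the sources used here.

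All 5 genes, Sox2 included, passed the filter on low counts only through the pMIR-Sox2 libraries. The fact that each was called thus carries no weight beyond its own values. For comparison, 43.2% of the genes tested other than Sox2 were called in either direction, and in 28.9% the pMIR-Sox2 libraries lay wholly above the pMIR libraries. Genes that rose from 3 or fewer summed pMIR counts numbered 72 (0.558%), and Sox14, Sox21 and Sox2ot are 3 of these. A gene with so few pMIR counts could be tested only by passing the filter through the pMIR-Sox2 libraries. That share is taken over all genes tested, so it does not show that such a rise is rare.

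Levels of different genes are comparable only per length of transcript. Per kb of exon in GENCODE M21, Sox2 stood at 389 ± 88.9 CPM in pMIR-Sox2 (SD, n = 3), 93rd of 12432 tested genes with a known length. Sox3 stood at 8.63 ± 2.44 CPM per kb, Sox21 at 4.90 ± 1.48 and Sox14 at 0.643 ± 0.289 (n = 3 each), beside a median of 6.35 over those genes. Sox3 and Sox21 overlapped, as the lowest Sox3 library (6.12) lay below the highest Sox21 library (6.23). Per kb of coding sequence the order of these neighbours turned, with Sox21 at 22.4 ± 6.79 and Sox3 at 13.2 ± 3.72. By that measure Sox2 stood at 833 ± 191 and Sox14 at 1.84 ± 0.827, so Sox2 was highest and Sox14 lowest by either length. Which length applies to the introduced Sox2 is not given. In pMIR the exon-based levels were 0.461 CPM per kb for Sox2, 0.119 for Sox3, 0.00647 for Sox21 and 0 for Sox14, against a median of 6.07.

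Within pMIR-Sox2 the 4 other genes had the same order of libraries as Sox2. Replicate 1 exceeded replicate 3 by 1.59-fold in Sox2 CPM, 1.80-fold in Sox3, 1.89-fold in Sox21, 1.80-fold in Sox2ot and 2.71-fold in Sox14, with replicate 2 between them in each. Sox3 was read at 22.9, 23.0 and 20.3 counts per 1000 Sox2 counts in replicates 1 to 3, with 95% intervals of 21.0 to 25.1, 20.7 to 25.7 and 17.7 to 23.2 (from Wilson intervals of the share of Sox3 in the sum of both genes' counts). Sox21 was read at 23.9, 25.0 and 20.1 (intervals 21.9 to 26.1, 22.5 to 27.7 and 17.5 to 23.0). The intervals of the 3 libraries overlapped for both genes, which does not show that the ratios were equal. Whether they differed between libraries was not tested. Sox14 was at 1.90, 1.79 and 1.11 and Sox2ot at 1.16, 1.38 and 1.02 counts per 1000 Sox2 counts, with wider intervals that also overlapped. The order is not particular to these genes: 804 of the 2990 genes that rose (26.9%) ran from replicate 1 down to replicate 3, and 76.0% were lowest in replicate 3. The median ratio of replicate 1 to replicate 3 over the genes that rose was 1.19.

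**Figure D2:**
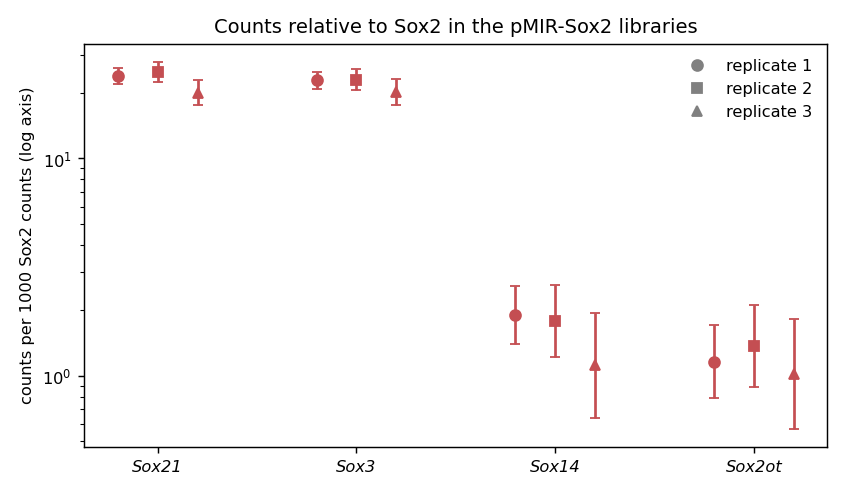
Counts of Sox21, Sox3, Sox14 and Sox2ot per 1000 Sox2 counts in each of the 3 pMIR-Sox2 libraries, on a log axis, with Wilson 95% intervals that cover counting error only. Sox21 and Sox3 lie between 20.1 and 25.0 in every library, and Sox14 and Sox2ot between 1.02 and 1.90.

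The traces in pMIR had other proportions. Sox3 was read at 350, 286 and 216 counts per 1000 Sox2 counts in pMIR replicates 1 to 3, from 7, 2 and 8 Sox3 counts, and all 3 intervals (lowest bound 67.5) lay above those in pMIR-Sox2. As a share of the pMIR-Sox2 library with the same number, the pMIR level was 0.0746, 0.0424 and 0.285% for Sox2. It was 1.14, 0.526 and 3.04% for Sox3, and 0.312, 0 and 0% for Sox21. Sox2 and Sox3 were thus both highest in pMIR replicate 3 and lowest in pMIR replicate 2, whereas Sox21 was seen only in replicate 1, by 2 counts. The source of these counts was not tested.

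Of the 15 Sox genes outside SoxB, 12 did not pass the filter, and the 3 that did were called, beside 43.2% of all genes tested. The Sox13 call ended in 4 of the 6 fits that left out 1 library. Sox4 (SoxC), which B cell progenitors need, stood at 42.5, 30.1 and 47.1 CPM in pMIR and 971, 1091 and 806 CPM in pMIR-Sox2. Its log2 fold change was 4.58 ± 0.20 (adjusted p = 4.39e-06, edgeR), and, unlike the SoxB genes, Sox4 was highest in pMIR-Sox2 replicate 2. Sox4 was read at 982, 1388 and 1292 counts per 1000 Sox2 counts, with intervals that did not overlap between libraries. These intervals cover counting error only and are narrow, as Sox4 had 13907 to 21135 counts per pMIR-Sox2 library. Sox14 had 12 to 41, so overlap or its absence does not compare how closely the 2 genes followed Sox2. Sox13 (SoxD) rose from 1.22 ± 0.105 to 2.35 ± 0.634 CPM (0.96, adjusted p = 0.0194, edgeR). Its adjusted p was 0.0586, 0.0538 and 0.0509 without pMIR replicates 1, 2 and 3 and 0.0824 without pMIR-Sox2 replicate 1. Sox12 (SoxC) fell from 20.8 ± 1.14 to 7.10 ± 1.65 CPM (−1.55, adjusted p = 0.000185, edgeR).

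The untested Sox genes had few counts in both groups. Sry and Sox10 had no count, and Sox11, Sox8, Sox9, Sox17, Sox18 and Sox30 had at most 12 counts over all 6 libraries. Sox5 had 18 counts in pMIR and 8 in pMIR-Sox2, and Sox15 had 23 and 14. Sox6 had 6 and 25 counts (ratio 4.99, interval 2.00 to 14.9), and Sox7 had 1 and 11 (13.2, interval 1.92 to 567). Both were called higher when no filter was applied (adjusted p = 0.0104 for Sox6 and 0.0225 for Sox7, edgeR). In the HMG box stretch Sox15 had the Sox2 base at 73.0% of positions, the most outside SoxB, and Sox4, the gene that rose most outside SoxB, at 68.8%.

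**Figure D3:**
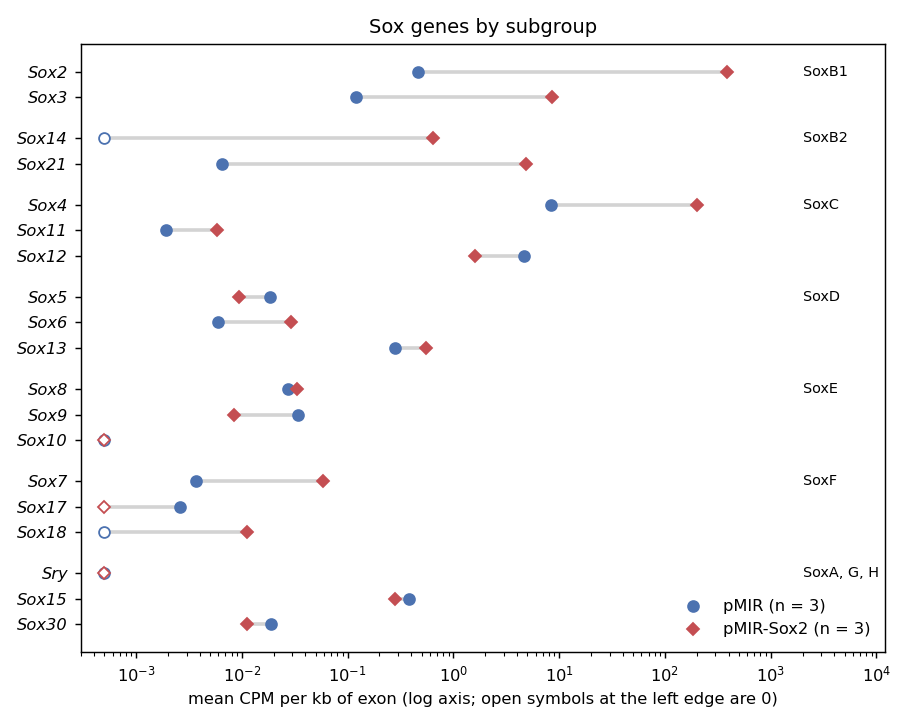
Mean CPM per kb of exon of 19 Sox genes in pMIR (blue circles) and pMIR-Sox2 (red diamonds), n = 3 libraries each, by subgroup on a log axis. Open symbols at the left edge are means of 0. Among the tested genes, Sox2, Sox3, Sox14, Sox21 and Sox4 move far to the right with Sox2 (Sox2 from 0.461 to 389), and Sox12 moves to the left. Untested genes with few counts also move, such as Sox7 to the right (0.00373 to 0.0580) and Sox9 to the left (0.0342 to 0.00838).

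The 14 listed partner factors of SoxB proteins were mostly silent. Pou5f1, which binds with Sox2 in pluripotent cells, had 0 counts in all libraries, as did Nanog, Esrrb, Pou3f1, Pou3f2 and Pou3f4. Of the 5 tested, 2 rose, 1 fell and 2 did not pass, where 43.2% of all genes tested were called and 23.2% rose. The median log2 fold change was 0.23 beside −0.02 over all genes tested. Pax6, the Sox2 partner of lens and neural tissue, passed the filter only through the pMIR-Sox2 libraries and rose from 0.419 ± 0.0328 to 2.09 ± 0.439 CPM (adjusted p = 0.000374, edgeR). Pou2f2, which encodes the B cell factor OCT2, fell from 70.4 ± 15.7 to 26.9 ± 3.60 CPM (adjusted p = 0.00031, edgeR). Pou2f1, which encodes the widespread OCT1, rose from 80.9 ± 5.98 to 125 ± 38.7 CPM (0.62, adjusted p = 0.0275, edgeR). That call ended without pMIR replicate 1 (adjusted p = 0.0595), 2 (0.053) or 3 (0.0908). Klf4 (−0.52) and Chd7 (0.23) did not pass, but without pMIR-Sox2 replicate 3 Klf4 fell (−1.30, adjusted p = 0.00275) and Chd7 rose (0.38, adjusted p = 0.039).

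Of 20 textbook targets of SoxB proteins, 14 did not pass the filter. Fgf4, Zfp42 and Dppa4 of pluripotent cells and Crygb, Crygc and Crygd of the lens had 0 counts in all 6 libraries. Of the 6 tested, 3 rose, 1 fell and 2 did not pass, where 43.2% of all genes tested were called and 23.2% rose. The median was 1.24 beside −0.02 over all genes. Dll1, which encodes a ligand of Notch receptors, stood at 2.45 ± 0.430 CPM in pMIR and rose to 22.0 ± 7.19 CPM (adjusted p = 4.25e-05, edgeR). Zic2, a neural zinc finger factor, rose from 6 counts to 149 (adjusted p = 5.74e-05, edgeR), and it too passed the filter only through pMIR-Sox2. The counts and medians of these lists include such genes and carry no weight beyond the values of each gene. Spp1, which encodes osteopontin, rose from 4.38 ± 1.62 to 30.7 ± 13.9 CPM (adjusted p = 0.000413, edgeR). Nes, the intermediate filament nestin of neural progenitors, fell from 2.77 ± 0.869 to 1.01 ± 0.377 CPM (adjusted p = 0.00883, edgeR). Notch1 (−0.34) did not pass, and it fell with replicate number as a block (adjusted p = 0.00732).

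The nearest protein-coding genes on each side were read to set the SoxB genes beside their surroundings, with order taken from GENCODE M21. Of 30 such genes, 15 were tested, and 7 rose, 1 fell and 7 did not pass, beside the 43.2% called over all genes. Next to Sox2, Dnajc19 stood at 22.1 ± 1.95 and 22.4 ± 2.64 CPM in pMIR and pMIR-Sox2 (log2 fold change 0.02 ± 0.13, SE), and Atp11b at 173 ± 18.4 and 192 ± 6.95 CPM (0.15 ± 0.11). Neither passed the test. The third gene out, Mccc1, a subunit of a leucine-degrading carboxylase, rose from 23.3 ± 1.30 to 93.0 ± 27.0 CPM (2.00, adjusted p = 0.000113, edgeR). Dcun1d1 between them rose slightly (0.33, adjusted p = 0.0414, edgeR). That call ended when any 1 pMIR library was left out (adjusted p = 0.17, 0.0711 and 0.0575 without replicates 1, 2 and 3), and without pMIR-Sox2 replicate 2 (0.102) or 3 (0.0631).

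Around Sox21, Gpr180 stood at 16.4 ± 0.762 and 15.9 ± 0.401 CPM and did not pass, and Gm9376 on the other side had 0 counts. The third gene out, Cldn10, a tight junction claudin, rose from 18 counts to 326 (4.41 ± 0.54, adjusted p = 0.000319, edgeR). Cldn10 passed the filter only through the pMIR-Sox2 libraries. Tgds rose by 0.47. Around Sox14, Cldn18 had 0 counts, Il20rb rose from 4.73 ± 1.72 to 9.90 ± 2.57 CPM and Nck1, an adaptor of receptor signalling, from 15.2 ± 3.83 to 36.9 ± 4.36 CPM (adjusted p = 0.000573, edgeR). The Il20rb call (adjusted p = 0.0137, edgeR) ended without pMIR-Sox2 replicate 1 (0.0665). Around Sox3, Gm7073 and Cdr1 had 0 counts. The genes next to Sox1, A230072I06Rik and Spaca7, also had 0 counts. The third gene out from Sox1, Atp11a, a lipid flippase, fell from 198 ± 42.1 to 108 ± 18.9 CPM (−0.88, adjusted p = 0.00419, edgeR).

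**Figure D4:**
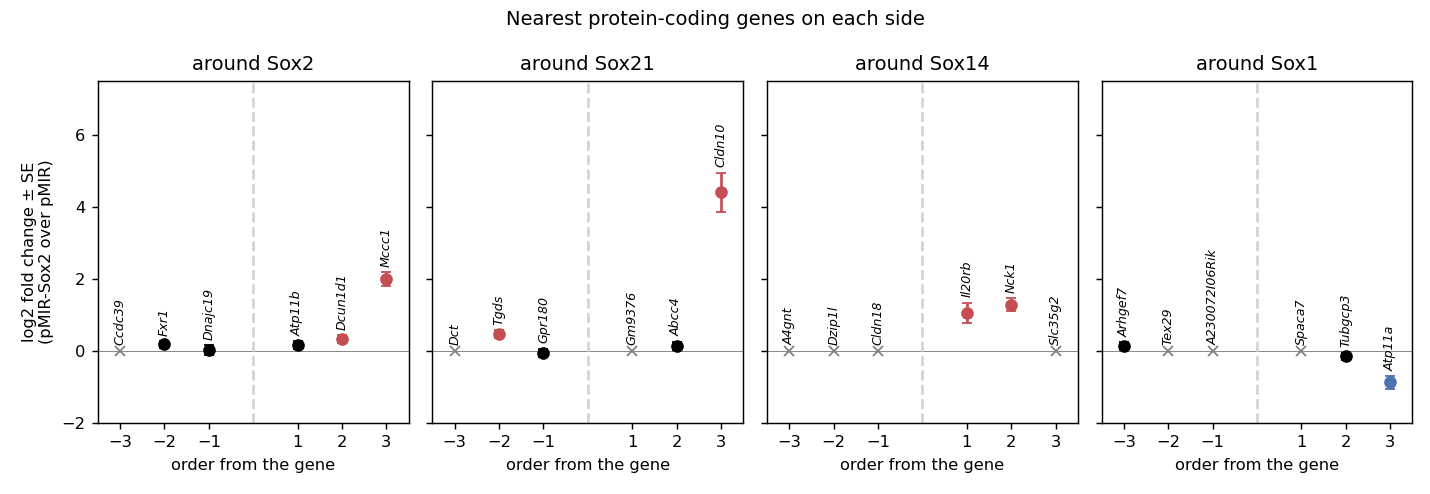
Log2 fold change of pMIR-Sox2 over pMIR, with its SE, for the 3 nearest protein-coding genes on each side of Sox2, Sox21, Sox14 and Sox1. The x axis gives the order from the gene, towards lower coordinates on the left and higher on the right. Red genes rose, blue genes fell, black genes did not pass and grey crosses at 0 mark genes that were not tested; Cldn10 (4.41) and Mccc1 (2.00) stand highest.

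Promoter letters were read for the SoxB genes that the RefSeq table (GRCm38.p6) holds, since SoxB proteins bind CATTGT and CTTTGT. Sox3 was not among the entries. The 250 bases before the RefSeq start of Sox14 and Sox21 held neither word on either strand, and those of Sox2 held CTTTGT once, on the reverse strand. The RefSeq start of Sox2 lies upstream of its GENCODE M21 start (chr3:34650405), so the Sox2 window does not reach the latter. On either strand, CATTGT occurred in 10.7% and CTTTGT in 16.5% of the table's 32851 promoter windows of that length. A match describes letters, not binding. The windows of Sox2 (chr3:34649745-34649994, plus strand) and Sox21 (chr14:118237031-118237280, minus strand) are shown 5′ to 3′ as the introduced gene's own locus and a relative that rose from 2 counts, with matches in capitals.
Sox2: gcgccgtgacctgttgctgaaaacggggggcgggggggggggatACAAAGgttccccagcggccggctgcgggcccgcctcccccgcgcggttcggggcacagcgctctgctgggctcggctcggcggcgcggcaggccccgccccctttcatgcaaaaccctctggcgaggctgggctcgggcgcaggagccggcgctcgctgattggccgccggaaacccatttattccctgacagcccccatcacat
Sox21: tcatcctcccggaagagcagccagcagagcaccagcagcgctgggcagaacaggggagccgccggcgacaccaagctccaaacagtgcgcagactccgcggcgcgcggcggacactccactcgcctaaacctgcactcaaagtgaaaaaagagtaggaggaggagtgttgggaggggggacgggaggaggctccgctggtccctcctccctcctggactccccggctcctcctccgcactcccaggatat

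Genes with the most similar profiles were found by the root mean square difference of log2 CPM (prior count 2) over the 6 libraries, after centring each gene on its own mean, among 11227 tested genes. For Sox3 these were Slc45a3 (difference 0.25), Cnpy1 (0.28) and Thsd7a (0.30), which reached 10.0, 9.13 and 6.16 CPM in pMIR-Sox2. For Sox21 they were Fam171b (0.40), Vipr2 (0.40), a receptor for vasoactive intestinal peptide, and Cntn4 (0.44), an axonal cell adhesion protein. For Sox14 they were Cacna1e (0.14), a calcium channel subunit, the non-coding RNA Miat (0.23) and Gprasp2 (0.23). Sox2 had no near match, as Kctd12b (1.02), Pcp4 (1.07) and Vipr2 (1.25) were the closest. For Sox2ot they were Slitrk4 (0), Psd3 (0.17) and Dgkg (0.18). The prior count pulls genes of low level towards smaller changes, and Sox14 and Sox2ot, at 1.33 and 0.956 CPM, are the lowest of the 5 genes. Among the SoxB genes themselves, Sox3 and Sox21 differed by 0.88, Sox3 and Sox14 by 1.07, and Sox2 and Sox21 by 1.44. Sox14 and Sox21 differed by 1.77, Sox2 and Sox3 by 2.04, and Sox2 and Sox14 by 3.07. Even in the closest of these pairs, Sox21 ranked only 70th in likeness to Sox3.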

How the data were processed

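The table deposited by the authors holds raw counts per Ensembl gene for 6 libraries of total RNA. HTSeq 0.6.1p1, TopHat2 2.0.11 with SAMtools 0.1.19, Trimmomatic 0.32, Bowtie2 2.2.2 and build mm9 are named, without roles, per the submitters' processing notes. The sources used here do not give strand setting, read length or annotation release. Rows that name no gene (5) were left out; genes held 51.9 to 53.2% of a library's total. Groups come from the sample titles.

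Genes were tested with edgeR 4.0.16 (R 4.3.3): filterByExpr by group, TMM, robust quasi-likelihood fit over all 6 libraries, Benjamini-Hochberg over 12899 genes, threshold 0.05. The test was run on simulated data first. Alternatives were DESeq2 1.42.0, limma-voom 3.58.1, other scalings, no filter, each library left out and a replicate block. Replicate numbers may pair the libraries: deviations from the group means correlated at 0.24, 0.36 and 0.19 for numbers 1, 2 and 3. Between libraries of differing number they correlated at −0.24 to 0.03. The main fit and the permutation test left such pairing out, and only the replicate block used it. No pair of replicates agreed within counting noise (chi-square per degree of freedom 15.1 to 36.3). Ratios have exact conditional 95% intervals, and intervals and limits cover counting error only.

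GENCODE M21 (GRCm38) gave lengths, coding sequence and gene order; it is not the build of the counts, and nothing was joined by coordinates. It held 32897 of the 37620 identifiers. Comparisons of protein sequence were replaced by coding sequence. Named genes were all members, tested Sox genes, the nearest and called neighbours (1 called neighbour is not reported here), up to 4 partners and targets with the smallest adjusted p, and the 3 most similar profiles; genes named as at 0, untested or changed only under an alternative were chosen after their values were seen. The genes and lists were chosen with earlier results of these data known.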

Additional observations from a re-analysis of the deposited data

How the results depend on the processing

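Sox2, Sox3, Sox14, Sox21 and Sox2ot kept their direction and passed the threshold under all 12 alternatives. The log2 fold change of Sox2 ran from 9.35 to 10.47 and that of Sox3 from 5.80 to 6.54. The highest adjusted p was 0.000432 for Sox2, with the replicate block, 0.000279 for Sox3, 0.0058 for Sox14, 0.000251 for Sox21 and 0.00301 for Sox2ot. The replicate block, paired by number, gave 9.74 for Sox2 and 6.16 for Sox3 and changed no call of these 5 genes or of the other Sox genes, partners and neighbours; among the targets it gave 2 falls in place of 1. The other Sox genes that rose numbered 4 with no filter, which tests more genes, and 1 to 2 without 1 library. The partners that rose numbered 1 to 3 and those that fell 1 to 2 without 1 library, and the targets that fell 1 to 2. With library totals only, 62.4% of called genes were higher, against 53.7% with TMM, and the median of all genes moved from −0.02 to 0.06. Counts at 0 in pMIR limit the size of the Sox14, Sox21 and Sox2ot changes to bounds or wide intervals.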

Other observations

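Sox2ot and Slitrk4, a neuronal membrane protein gene, had the same count in each of the 6 libraries (25, 20 and 11 with Sox2 and 1, 0 and 0 with the empty vector). Of the 13150 rows with at least 50 counts over the 6 libraries, these were the only 2 that shared all 6 counts with another row. Both lie close to that cut, where equal counts are easier to meet than at higher levels. Rows of a like level were not compared apart. The rows have different Ensembl identifiers, and why they coincide was not tested.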
